A study of Homo sapiens with 6 samples.

Results

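Transcripts of the matrix metalloproteinase (MMP) and tissue inhibitor of metalloproteinase (TIMP) genes were examined in human cell lines with or without a vector for malin. The lines were the lung cancer lines A549 and H1299 and a pair labelled H2030. The rule named 10 genes, 7 MMPs and 3 TIMPs, and they were taken by gene symbol from the deposited tables. Of these, 9 had values among the 19903 genes listed in each library, namely MMP1, MMP2, MMP7, MMP9, MMP14, MMP15, TIMP1, TIMP2 and TIMP3, and MMP3 was not analysed here. The genes were chosen by their FPKM values per line and vector in these libraries, including the level of MMP7 in A549, so their levels and their differences between vectors are given as a description, with no test.

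MMPs are zinc-dependent endopeptidases that cut collagens, laminins, fibronectin and many cell-surface proteins. Most are made as inactive precursors and become active when the prodomain is removed, by furin-like convertases inside the cell or by plasmin and other proteases outside it. TIMPs are small secreted proteins that block the active site, and the balance of the 2 families sets how much matrix a cell can degrade. In lung tumours MMP transcripts come from the cancer cells and also from fibroblasts and leukocytes.

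The study had 6 libraries, 1 per cell line and vector: A549 with malin and with empty vector, H1299 with malin and with empty vector, and a pair labelled H2030 with malin and with empty vector. Malin is an E3 ubiquitin ligase encoded by NHLRC1, the labels call the vector cells NHLRC1-overexpression, and all cells were at passage 5. A549 and H1299 are widely used lines from human non-small-cell lung tumours. The promoter of the vector, the use of clones or pools and the independence of the cultures are not given in the sources used here. Levels are FPKM, in which the fragments of a gene are divided by its length and by the library's total, so levels of different genes can be set side by side per length. Depth was not stated, and the spacing of low values put it at 8300000 to 10700000 fragments per library. NHLRC1 stood at 6.82, 119.2 and 3.69 FPKM in the malin libraries of A549, H1299 and the H2030-labelled pair, against 1.21, 2.85 and 0.18 FPKM in their empty-vector libraries.

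The column header of the malin library of the third pair names a human embryonic kidney line, while its labels name H2030, so the pair is called labelled H2030 throughout and results are given line by line. In this pair the vector and whatever the other header marks cannot be told apart. The 4 neurofilament genes, which mark neurons, summed to 90.7 and 63.7 FPKM in its malin and empty-vector libraries and to at most 55.0 FPKM in the others. NEFL and NEFM made up most of that sum, whereas NEFH and INA were higher in H1299, with INA at 6.12 and 9.30 FPKM in the H2030-labelled pair with malin and empty vector, against 42.0 and 43.7 FPKM in H1299. The summed level of 8 epithelial markers was 159 and 183.2 FPKM in its malin and empty-vector libraries, against 953 in each H1299 library and 3250.5 and 3980.4 in A549 with malin and empty vector. The surfactant genes SFTPB, SFTPC and SFTPD were at most 0.16 FPKM in every library, and NKX2-1, the lung lineage transcription factor, was listed at 0 in both A549 libraries, at 0.60 and 0.77 FPKM in H1299 with malin and empty vector, and at 3.78 and 1.85 FPKM in the H2030-labelled pair. FOXA2, another lung lineage factor, was at 10.2 FPKM in each A549 library and at most 0.36 FPKM elsewhere. Of 9 fibroblast markers 7 had values, summing to 0.36 to 16.1 FPKM, highest in the H2030-labelled pair. The 5 endothelial markers summed to at most 0.57 FPKM. Of 10 macrophage and neutrophil markers 6 had values, summing to 6.04 to 55.6 FPKM with CD68 the largest in H1299 and A549, while PTPRC, the pan-leukocyte surface marker, was at most 0.07 FPKM. In bulk RNA, fewer cells of a type and less RNA per cell cannot be told apart.

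Among the 6 MMPs of the set, the most abundant were MMP7 and MMP15 in A549, MMP14 and MMP1 in H1299, and MMP2 and MMP15, at low levels, in the H2030-labelled pair. TIMP1 and TIMP2 were present at 15.1 FPKM or more in every library, whereas TIMP3 was above 1 FPKM in the H2030-labelled pair alone. Of the 9 genes, 4 had their highest mean in H1299, 3 in A549 and 2 in the H2030-labelled pair. With the 2 libraries of a line considered as 1 group, all 3 lines were separate in 7 genes, and neighbouring lines overlapped in MMP1 and MMP2. Of the 8 genes passing the filter on low values, a mean of at least 1 FPKM, 6 were separate in this way, against 61.6% of 12184 tested genes. MMP1, MMP7, MMP14 and TIMP3 passed that filter only through the line where each was high, so no conclusion is drawn from this count. The separation of H1299 from the H2030-labelled pair in MMP7 rests on an estimated 1 fragment per H1299 library. That of A549 from H1299 in TIMP3 rests on an estimated 15 and 6 fragments, malin and empty vector, against 1 and 0. The order of A549 and the H2030-labelled pair in MMP14 turned round with quantile normalization.

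**Figure D1:**
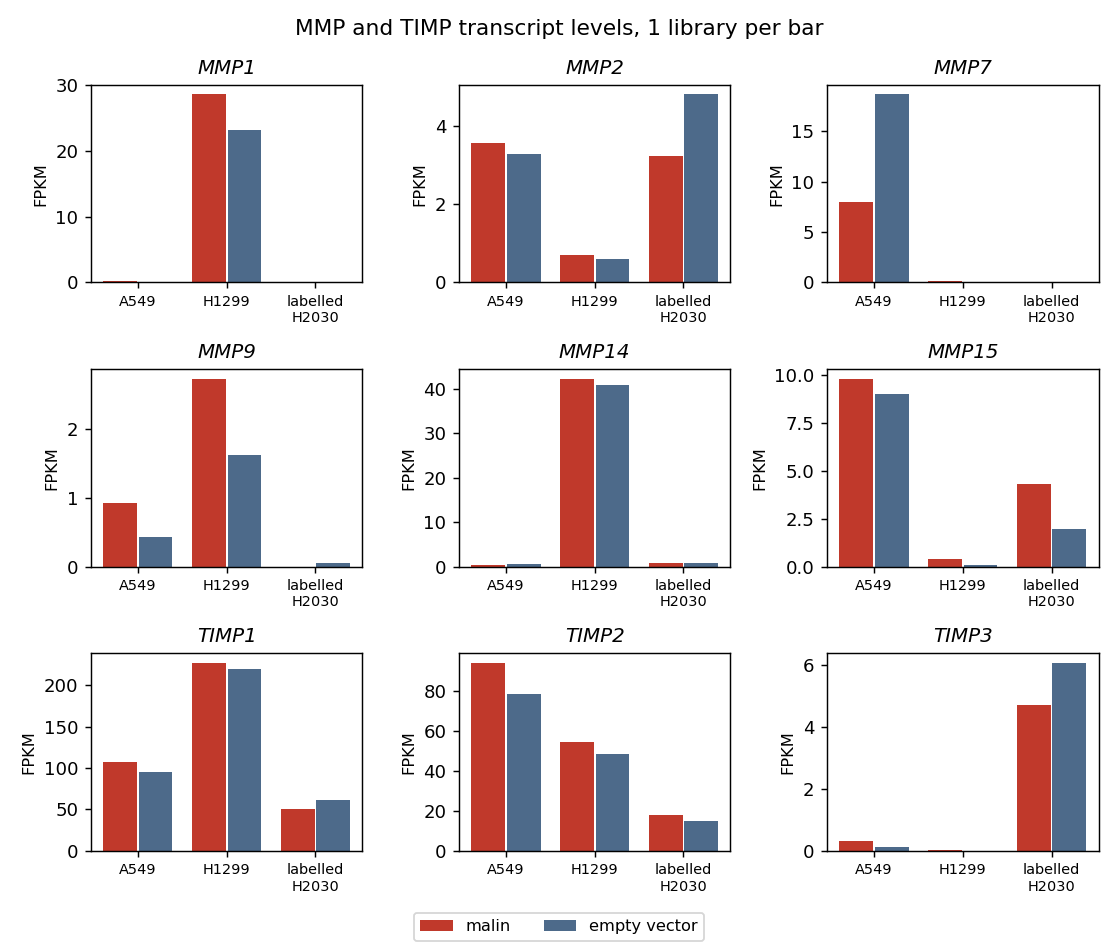
FPKM of the 9 genes, with each bar 1 library, malin in red left of empty vector in blue, by cell line, and a separate axis from 0 in each panel. MMP7 is seen in A549, MMP1 and MMP14 in H1299 and TIMP3 in the H2030-labelled pair, and TIMP1 reaches 227 FPKM in H1299.

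MMP7, or matrilysin, is a small secreted MMP without the hemopexin domain that most secreted members have, and it is typically made by epithelial cells. It stood at 7.99 FPKM in A549 with malin and 18.65 FPKM in A549 with empty vector. In H1299 it was at 0.10 and 0.09 FPKM with malin and empty vector, an estimated 1 fragment each, and it was listed at 0 in both libraries labelled H2030. The gene was therefore seen at a substantial level in A549 alone. There the ratio of malin to empty vector was 0.43, with a 95% interval of 0.33 to 0.55 that rests on an estimated 85 and 195 fragments and covers counting error only. On the log2(FPKM + 1) scale the difference was -1.13, the third lowest of 12184 protein-coding genes with a mean of at least 1 FPKM in this line, where the SD over genes was 0.18. MMP7 was the 1 gene of the 8 passing that filter to differ by 2-fold on this scale in A549, where 0.115% of all tested genes did so in either direction. With 1 library per vector the difference has no replicate check, and MMP7 was the gene whose A549 value was known when the set was chosen.

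MMP7 lies on chromosome 11 of hg38 from 102520508 to 102530753 on the minus strand in GENCODE release 29. The 250 bases before its start site in RefSeq (GRCh38.p14, chr11:102530748-102530997, minus strand) are shown first below because the gene differs between the vectors and between the lines. Those of MMP14 (chr14:22836335-22836584, plus strand), high in H1299, and of MMP15 (chr16:58025504-58025753, plus strand), high in A549 and low in H1299, are shown for contrast. In GENCODE release 29 each of these genes starts inside its window, MMP7 at 102530753, MMP14 at 22836557 and MMP15 at 58025566. Part of each window, and most of that of MMP15, thus lies within the gene in that annotation. Capitals mark the AP-1 motif TGANTCA, the TATA box TATAAA on the gene's strand and the GC box GGGCGG on either strand (read as CCGCCC on the other).
MMP7: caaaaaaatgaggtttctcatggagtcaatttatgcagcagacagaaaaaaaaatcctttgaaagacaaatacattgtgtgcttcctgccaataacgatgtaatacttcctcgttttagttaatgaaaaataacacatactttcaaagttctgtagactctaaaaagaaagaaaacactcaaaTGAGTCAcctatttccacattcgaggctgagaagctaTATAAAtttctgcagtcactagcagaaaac
MMP14: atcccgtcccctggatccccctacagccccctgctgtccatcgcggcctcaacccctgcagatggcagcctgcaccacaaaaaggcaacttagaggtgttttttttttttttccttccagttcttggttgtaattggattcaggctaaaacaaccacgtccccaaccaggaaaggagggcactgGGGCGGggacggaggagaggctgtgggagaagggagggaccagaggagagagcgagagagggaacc
MMP15: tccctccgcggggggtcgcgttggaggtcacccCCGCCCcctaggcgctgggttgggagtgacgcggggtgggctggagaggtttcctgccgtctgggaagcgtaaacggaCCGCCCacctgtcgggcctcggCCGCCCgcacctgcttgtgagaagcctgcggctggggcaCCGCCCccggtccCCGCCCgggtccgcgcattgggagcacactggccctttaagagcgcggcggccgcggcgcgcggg
The MMP7 sequence holds 1 AP-1 motif starting 67 bases before the start site, 1 TATA box starting 30 bases before it and no GC box. The MMP14 sequence holds 1 GC box and the MMP15 sequence holds 5, and neither has the other 2 motifs in this window. Of 35116 promoters of this length in the RefSeq table, 6.57% hold the AP-1 motif, 6.8% the TATA box and 42.6% the GC box. Among the 20172 of protein-coding genes, the shares were 5.03%, 5.27% and 56.8%, in that order. The GC content was 33.6% for MMP7, 56.8% for MMP14 and 74.8% for MMP15, against a median of 58% over all promoters. These matches describe the letters and show no binding. Entries were found for 5 of the 9 genes, and those of TIMP1 and TIMP3 held 2 and 5 GC boxes with neither of the other motifs. GENCODE also starts TIMP1 and TIMP3 inside their windows.

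Several epithelial markers, though not all, were also lower in A549 with malin. ELF3, an epithelial ETS-family transcription factor, was at 35.3 FPKM with malin and 62.6 FPKM with empty vector. The keratin genes KRT8 and KRT18 were at 920.5 and 973.6 FPKM with malin, against 1233.8 and 1334.3 FPKM with empty vector. KRT7 was at 1269.1 FPKM with malin and 1301.6 FPKM with empty vector, and KRT19 was at 48.1 and 42.0 FPKM. The 7 epithelial markers tested had a median log2 difference of -0.45 in A549, against -0.0027 in H1299 and -0.18 in the H2030-labelled pair. The part of these genes in the MMP7 difference was not tested.

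MMP1, the interstitial collagenase that cuts fibrillar collagen, was at 28.6 FPKM in H1299 with malin and 23.1 FPKM with empty vector. It was at 0.24 FPKM in A549 with malin and listed at 0 with empty vector, and in the H2030-labelled pair it was listed at 0 with malin and at 0.06 FPKM with empty vector. MMP1 was thus confined to H1299 at more than 1 FPKM, and A549 and the H2030-labelled pair overlapped. In H1299 the ratio of malin to empty vector was 1.24 (95% interval 1.09 to 1.40, counting error only), a log2 difference of 0.29.

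MMP1 lies on chromosome 11 from 102789920 to 102798160 on the minus strand, in the same cluster as MMP7, and overlaps WTAPP1, a pseudogene on the opposite strand that did not pass 0.30 FPKM. The cluster genes were taken by position. Values were examined for 7 genes of the cluster, MMP7, MMP20, MMP8, MMP10, MMP1, MMP12 and MMP13 in genome order. The neighbours stayed low in every library. MMP10, which encodes a stromelysin, was at 0.79 and 0.51 FPKM in H1299 with malin and empty vector, at 0.17 FPKM in A549 with malin, at 0.29 FPKM in the empty-vector library labelled H2030 and listed at 0 in the other 2. MMP13, another collagenase, was at 0.66 and 0.61 FPKM in H1299 with malin and empty vector and at most 0.28 FPKM elsewhere. MMP8, MMP12 and MMP20 did not pass 0.14 FPKM in any library. The highest gene of the cluster was MMP7 in A549 and MMP1 in H1299. MMP10 has an entry in the promoter table and, like MMP7, holds an AP-1 motif starting 67 bases before its start and a TATA box, there starting 31 bases before it. The entry of MMP20 holds both motifs farther out, starting 112 and 72 bases before its start, and that of MMP8 holds a TATA box starting 110 bases before its start and no AP-1 motif. These starts are those of RefSeq, and GENCODE starts MMP8 farther out, at 102727050, so that its window lies within the gene there.

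**Figure D2:**
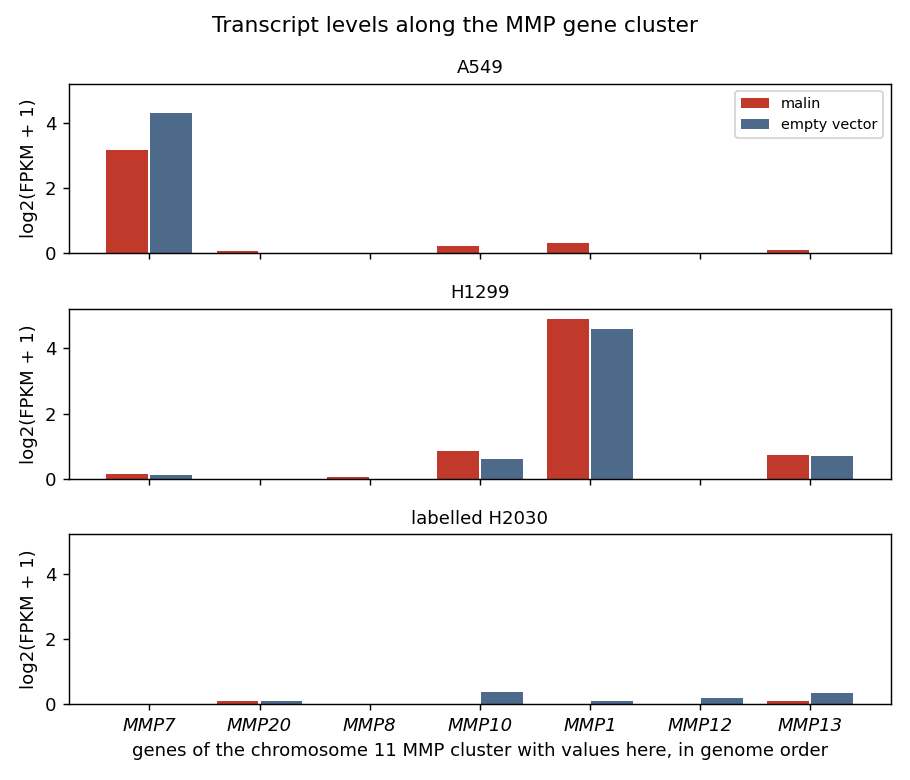
log2(FPKM + 1) of 7 MMP genes of the chromosome 11 cluster in genome order, one panel per line, with malin in red left of empty vector in blue and 1 library per bar. MMP7 rises above the rest in A549, MMP1 in H1299, and no gene passes 1 FPKM in the H2030-labelled pair.

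MMP9 and MMP2 encode the gelatinases, which cut denatured collagen and basement-membrane collagen. MMP9 was at 2.73 and 1.62 FPKM in H1299 with malin and empty vector and at 0.93 and 0.43 FPKM in A549 with malin and empty vector. In the H2030-labelled pair it was listed at 0 with malin and at 0.05 FPKM with empty vector. MMP9 was therefore higher with malin in the 2 lines where it was measurable. The ratio was 1.69 in H1299 (interval 1.09 to 2.56) and 2.16 in A549 (interval 0.98 to 5.10), from an estimated 60 against 39 and 22 against 10 fragments. MMP9 lies on chromosome 20 from 46008908 to 46016561 on the plus strand and overlaps SLC12A5-AS1 on the opposite strand. Its mean of 0.96 FPKM fell below the filter of 1 FPKM, so it was not among the 12184 genes fitted.

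MMP2 was the 1 MMP of the set found at a similar level above 1 FPKM in 2 lines. It was at 3.23 and 4.81 FPKM in the H2030-labelled pair with malin and empty vector, at 3.56 and 3.29 FPKM in A549 with malin and empty vector, and at 0.69 and 0.61 FPKM in H1299 with malin and empty vector. The A549 values lay inside the range of the H2030-labelled pair, and the order of those lines turned round with median-of-ratios scaling and with quantile normalization. The ratio of malin to empty vector was 0.67 in the H2030-labelled pair (interval 0.51 to 0.88), and in the other lines the interval included 1. MMP2 lies on chromosome 16 from 55389700 to 55506691 on the plus strand and overlaps the annotated antisense gene MMP2-AS1. Whether counting used strand is not given, so reads of overlapping genes were not told apart.

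MMP14 and MMP15 encode membrane-anchored MMPs, and MMP14 is the main activator of the MMP2 precursor, with TIMP2 as a bridge. MMP14 was at 42.3 and 40.9 FPKM in H1299 with malin and empty vector, the highest MMP of the set in any library. It was at 0.42 and 0.57 FPKM in A549 with malin and empty vector and at 0.92 and 0.81 FPKM in the H2030-labelled pair. H1299 stood far above the other lines, and the order of the H2030-labelled pair and A549 turned round with quantile normalization. In H1299 the ratio of malin to empty vector was 1.04 (interval 0.96 to 1.11) from an estimated 1521 and 1588 fragments. MMP2, the substrate of MMP14, was lowest in this line. MMP14 lies on chromosome 14 from 22836557 to 22849027 on the plus strand.

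MMP15 ran the other way between the lines. It was at 9.82 and 8.99 FPKM in A549 with malin and empty vector, at 4.29 and 1.99 FPKM in the H2030-labelled pair, and at 0.42 and 0.07 FPKM in H1299, again with malin and empty vector in that order. It was higher with malin in every line. The ratio was 2.16 in the H2030-labelled pair (interval 1.61 to 2.87, from an estimated 178 and 69 fragments) and 1.09 in A549 (interval 0.95 to 1.26). In H1299 the ratio of 6 rests on an estimated 17 and 3 fragments (interval 1.77 to 32.6). On the log2(FPKM + 1) scale the differences were 0.82 in the H2030-labelled pair, 0.12 in A549 and 0.41 in H1299. The pair labelled H2030 was also the one with the widest spread over all genes, with an SD of 0.40, and 11.6% of tested genes differed there by 1.5-fold or more on this scale. MMP15 was the 1 gene of the 8 to do so. On this scale, unlike in the plain ratio of 2.16, it stayed under 2-fold, as did the other 7, where 2.08% of all tested genes passed it. MMP15 lies on chromosome 16 from 58025566 to 58046901 on the plus strand.

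TIMP1, a broadly acting inhibitor that also has growth-promoting activity, was the most abundant gene of the set in every library. It was at 227 and 220.4 FPKM in H1299 with malin and empty vector, at 107 and 95.7 FPKM in A549 with malin and empty vector, and at 51.0 and 61.1 FPKM in the H2030-labelled pair. The lines did not overlap. The ratio of malin to empty vector was 1.12 in A549 (interval 1.02 to 1.24). It was 1.03 in H1299 (interval 0.97 to 1.10) and 0.83 in the H2030-labelled pair (interval 0.72 to 0.96). TIMP1 lies on chromosome X from 47582313 to 47586789 on the plus strand, inside SYN1 on the opposite strand, and SYN1 did not pass 0.86 FPKM in any library.

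TIMP2, which takes part in the activation of the MMP2 precursor as well as in inhibition, was highest in A549 and lowest in the H2030-labelled pair. Its levels were 94.3 and 78.4 FPKM in A549 with malin and empty vector, 54.4 and 48.5 FPKM in H1299, and 18.0 and 15.1 FPKM in the H2030-labelled pair. The malin library was the higher one in each line. The ratios were 1.20 in A549 (interval 1.14 to 1.26), 1.12 in H1299 (interval 1.05 to 1.20) and 1.19 in the H2030-labelled pair (interval 1.05 to 1.35), all for counting error only. TIMP2 and MMP15 were the 2 of 8 genes higher with malin in all 3 lines, as were 11.04% of all tested genes, and 0 of the 8 were lower in all 3, against 11.3%. Without the H2030-labelled pair, a choice made after seeing the data, 6 of the 8 were higher with malin in both A549 and H1299. In both lines 0 of the 8 were lower, and over all tested genes the shares were 24.7% higher and 22% lower. Of the 6, MMP1 in A549 and TIMP3 in H1299 rest on an estimated 5 and 1 fragments with malin and 0 with empty vector. TIMP2 lies on chromosome 17 from 78852977 to 78925387 on the minus strand and overlaps CEP295NL on the same strand, whose level was not analysed here.

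TIMP3, the matrix-bound inhibitor that also blocks ADAM17, was at 4.72 and 6.07 FPKM in the H2030-labelled pair with malin and empty vector. It was at 0.31 and 0.13 FPKM in A549 with malin and empty vector, and at 0.02 FPKM with malin and listed at 0 with empty vector in H1299. The pair labelled H2030 lay above both other lines in each of its libraries. The ratio of malin to empty vector was 0.78 there (interval 0.64 to 0.94). TIMP3 lies on chromosome 22 from 32801701 to 32863043 on the plus strand within SYN3 on the opposite strand, and SYN3 was at 1.08 and 0.45 FPKM in the H2030-labelled pair with malin and empty vector.

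Summed over the set, TIMP transcripts outnumbered MMP transcripts per length in every library. The 3 TIMPs summed to 201.8 and 174.2 FPKM in A549 with malin and empty vector, 281.9 and 269 in H1299, and 73.7 and 82.3 in the H2030-labelled pair. The 6 MMPs summed to 23.0 and 31.9 FPKM in A549 with malin and empty vector, 74.8 and 66.4 in H1299, and 8.44 and 7.72 in the H2030-labelled pair. Within the set, the ratio of TIMP to MMP sums was lowest in H1299, at 3.77 and 4.05 with malin and empty vector. In A549 it was 8.79 with malin and 5.46 with empty vector, and without MMP7 it was 13.5 and 13.1. In the H2030-labelled pair it was 8.73 with malin and 10.7 with empty vector. MMP7 made up 58.4% of the MMP sum in A549 with empty vector, whereas with malin MMP15 was the largest member there at 42.8%. These ratios leave out MMPs outside the set. Those summed to 15.42 and 15.79 FPKM in the H2030-labelled pair with malin and empty vector, above the sums of the set. In H1299 they summed to 10.57 and 10.79 FPKM, below them. MMP24 alone was at 15.1 and 17.2 FPKM in A549. Whether H1299 stays lowest with all MMPs and TIMPs was not tested.

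**Figure D3:**
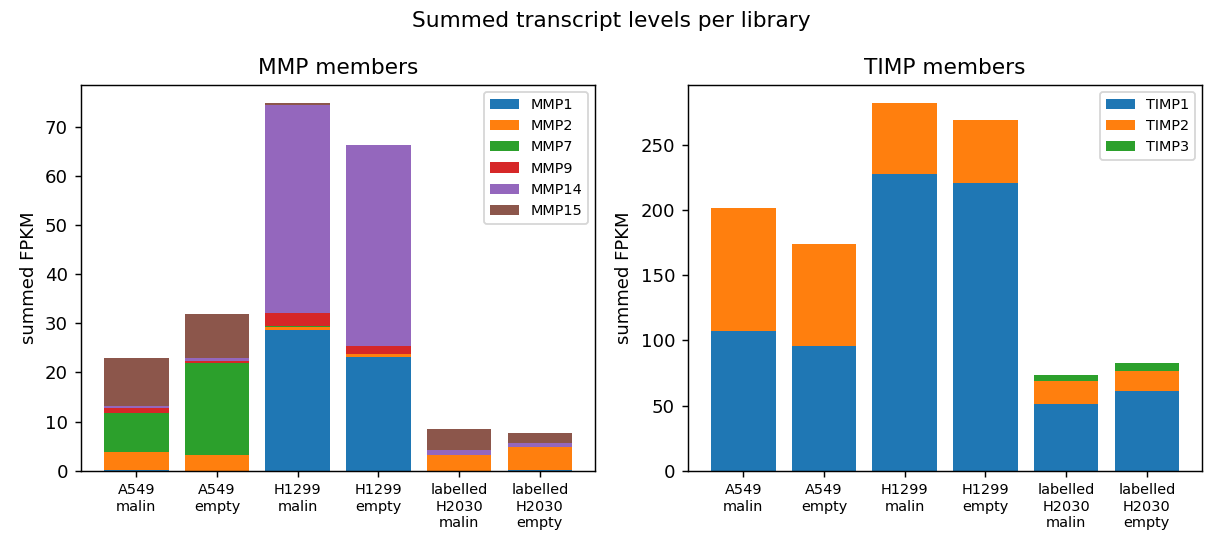
Summed FPKM of the 6 MMPs (left) and of the 3 TIMPs (right) in each library, with coloured segments for the genes and malin left of empty vector within a line. MMP14 and MMP1 fill the H1299 bars, MMP7 and MMP15 most of the A549 bars, and TIMP1 is the largest TIMP segment in every library.

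The median log2 difference of the 8 genes passing the filter was 0.14 in A549, while H1299 gave 0.06 and -0.04 was found in the H2030-labelled pair, against 0, 0.005 and -0.03 over all tested genes. Of the 8, 6 were higher and 2 lower with malin in A549, 8 were higher in H1299, and 3 were higher and 4 lower in the H2030-labelled pair, with MMP7 at 0 in both. The H1299 count includes MMP7 at an estimated 1 fragment per library, whose sign turned with quantile normalization. That count also includes TIMP3 at an estimated 1 fragment against 0, and MMP2, MMP14 and TIMP1, whose intervals included 1. Of those higher in A549, MMP1 rests on an estimated 5 fragments against 0, and the intervals of MMP2, MMP15 and TIMP3 included 1. The share of all tested genes higher in each line was not counted, so these counts by direction do not show a shift of the set. On the log2(FPKM + 1) scale, which shrinks the folds of low genes, none of the 8 reached 2-fold in H1299, where 0.0821% of tested genes did, and none reached 1.5-fold there, against 0.476%. On the same scale MMP7 alone of the 8 reached 1.5-fold in A549, against 1.12% of tested genes. With a pseudocount of 0.1 in place of 1, the log2 difference of MMP15 was 1.61 in H1299, and those of MMP1 and TIMP3 were 1.77 and 0.83 in A549, all at levels under 0.50 FPKM in both libraries. Across the 3 lines, limma with the line as a block called 0 of 12184 genes (0.0%) at an adjusted p of 0.05. At an unadjusted p under 0.05 there were 213. No other tool was run on this comparison. NHLRC1, the gene on the vector, was therefore not called either. Yet it stood at 6.82 against 1.21 FPKM in A549, malin against empty vector, and at 119.2 against 2.85 FPKM in H1299. In the H2030-labelled pair it was at 3.69 against 0.18 FPKM. The count of 0 thus cannot show that a gene was unchanged.

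**Figure D4:**
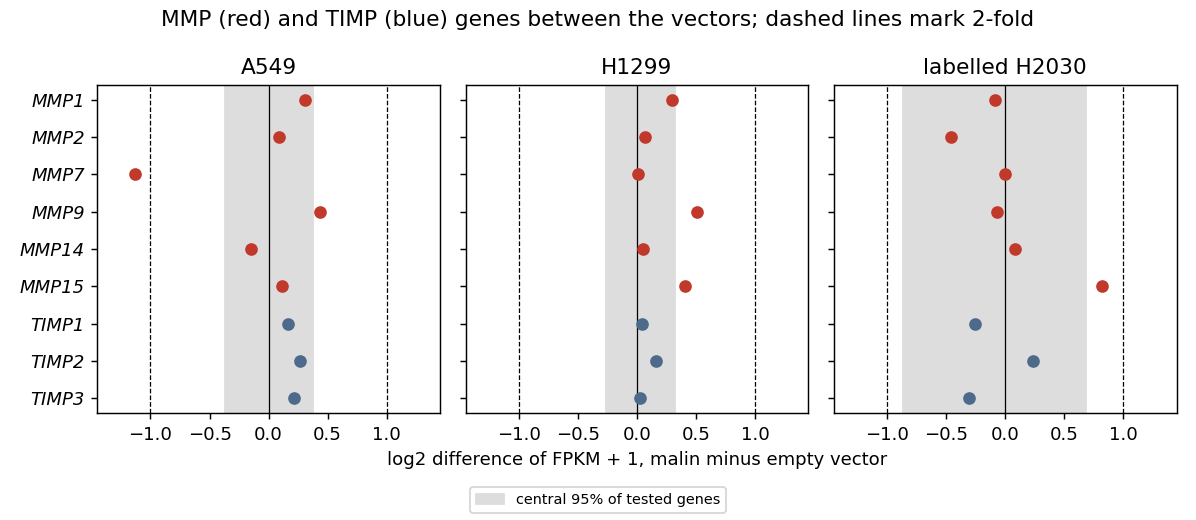
Log2 differences of FPKM + 1, malin minus empty vector, for the 9 genes in each line, with MMPs in red and TIMPs in blue, each from 1 pair of libraries. The grey band holds the central 95% of 12184 tested genes and the dashed lines mark 2-fold. MMP7 in A549 lies at -1.13, and MMP15 in the H2030-labelled pair at 0.82.

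Genes outside the set were tested between lines with limma, using the malin and the empty-vector library of each line as its 2 samples. With a vector term in the model, these p-values rest on how the difference between malin and empty vector varied among the 3 lines. They do not measure the spread between repeat cultures of a line. H1299 against A549 gave 34.5% of 12184 genes higher and 27.2% lower, labelled H2030 against A549 gave 45.0% and 22.1%, and labelled H2030 against H1299 gave 40.9% and 23.8%. Of the calls for labelled H2030 against A549, 67.1% were higher, but 49.1% with median-of-ratios scaling and 54.9% with quantile normalization, and against H1299 the shares were 63.2%, 50.8% and 53.1%. Of 17 other MMPs and TIMP4, 15 had values and 6 passed the filter. In H1299 against A549, 2 of the 6 were higher and 3 lower, and in labelled H2030 against A549 3 were higher and 3 lower (2 and 3 with quantile normalization).

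MMP24, a membrane-anchored MMP best known from neural tissue, was at 2.96 and 2.86 FPKM in H1299 with malin and empty vector, against 15.1 and 17.2 FPKM in A549. The log2 difference was -2.13 ± 0.14 (SE, limma adjusted p = 0.000112). Genes on the opposite strand overlap MMP24, so its value is uncertain. MMP11, a stromelysin-like member, was at 4.68 and 4.02 FPKM in the H2030-labelled pair with malin and empty vector, against 0.04 and 0.18 FPKM in A549 (log2 difference 2.27 ± 0.16, SE, limma adjusted p = 0.000107). CHCHD10, on the opposite strand, overlaps MMP11 by 218 bases and was at 77.7 and 80.4 FPKM in the same libraries, so the MMP11 value is uncertain. MMP17, a membrane-type MMP, was at 1.14 and 1.68 FPKM in H1299, against 4.34 and 5.92 FPKM in A549 (log2 difference -1.34 ± 0.15, SE, limma adjusted p = 0.000623). TIMP4 was listed at 0 in both H1299 libraries and both labelled H2030, and stood at 3.58 and 3.82 FPKM in A549 with malin and empty vector. Under the vectors 0 of the 6 were called over the 3 lines, and none differed by 2-fold in a line on the log2(FPKM + 1) scale.

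Of 14 listed genes that act in the activation of MMP precursors, 8 were tested, with 4 higher and 2 lower in H1299 against A549, where 34.5% and 27.2% of all tested genes were called. PLAU, the urokinase that makes plasmin, was at 264.8 and 259.5 FPKM in H1299 with malin and empty vector, against 122 and 79.5 FPKM in A549 (log2 difference 1.40 ± 0.21, SE, limma adjusted p = 0.00219). Its receptor gene PLAUR was at 173 and 169 FPKM in H1299, against 20.4 and 14.7 FPKM in A549 (log2 difference 3.23 ± 0.14, SE, limma adjusted p = 2.6e-05). Both were low in the H2030-labelled pair, at 1.48 and 2.07 FPKM for PLAU and 3.09 and 3.01 FPKM for PLAUR with malin and empty vector. BSG, an MMP-inducing surface protein, was at 255.6 FPKM or more in every library. H1299, the line with the highest MMP1 and MMP14 levels, also had the highest PLAU and PLAUR levels. PLAT, the tissue plasminogen activator gene, was the 1 gene of this list past 2-fold between vectors on the log2(FPKM + 1) scale, at 11.6 and 27.4 FPKM in the H2030-labelled pair with malin and empty vector.

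Of 11 other protease inhibitors 7 were tested, and 0 were higher and 5 lower in H1299 against A549. Over all tested genes the shares were 34.5% higher and 27.2% lower. SERPINE2, a serine protease inhibitor gene, was at 18.6 and 14.1 FPKM in H1299 with malin and empty vector, against 122 and 84.5 FPKM in A549 (log2 difference -2.58 ± 0.21, SE, limma adjusted p = 0.000216). In A549, PLAU and SERPINE2 were each higher with malin, by 0.61 and 0.52 on the log2 scale, while MMP7 was lower. SPINT2, a Kunitz-type serine protease inhibitor, was at 3.51 and 3.04 FPKM in H1299 with malin and empty vector, against 158.3 and 147.1 FPKM in A549. CST3, which encodes cystatin C, was at 41.7 and 38.5 FPKM in H1299, against 117.7 and 124.3 FPKM in A549.

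Of 14 ADAM and ADAMTS genes 7 were tested, with 2 higher and 5 lower in H1299 against A549. The shares of all tested genes were 34.5% and 27.2%. ADAM9, a cell-surface sheddase, was the highest gene of this list at 128.8 and 121.6 FPKM in A549 with malin and empty vector. ADAM10 and ADAM17, also sheddases, lay between 14.9 and 58.4 FPKM and between 13.2 and 28.99 FPKM over the 6 libraries, and ADAM15 between 13.3 and 28.4 FPKM.

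Of 20 transcription factors known to act on MMP genes 19 were tested, with 7 higher and 7 lower in H1299 against A549. In labelled H2030 against A549, 4 were higher and 12 lower, and 3 and 13 with median-of-ratios scaling or quantile normalization. Over all tested genes the shares were 34.5% higher and 27.2% lower in the first comparison, and 45.0% and 22.1% in the second. FOSL1, an AP-1 subunit, was at 269 and 286.1 FPKM in H1299 with malin and empty vector, against 56.3 and 38.1 FPKM in A549 (log2 difference 2.56 ± 0.22, SE, limma adjusted p = 0.000288), and at 1.31 and 2.09 FPKM in the H2030-labelled pair. ELF3 was listed at 0 and at 0.03 FPKM in H1299 and was below 0.05 FPKM in the H2030-labelled pair, so among these lines it was seen in A549, as MMP7 was. Genes of other lists, such as KRT19 and TIMP4, had this pattern as well, and a link of ELF3 to the MMP7 level was not tested. Past 2-fold between the vectors on the log2(FPKM + 1) scale were JUN, FOSL2 and ETV5, all in the H2030-labelled pair, with JUN at 56.7 FPKM with malin and 131 FPKM with empty vector. FOSL2 was at 2 and 7.42 FPKM and ETV5 at 0.23 and 1.65 FPKM there with malin and empty vector. CTNNB1, which encodes beta-catenin, was between 77.0 and 124.9 FPKM in every library.

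Of 18 matrix substrate genes 17 were tested, with 1 higher and 10 lower in H1299 against A549 (1 and 11 with median-of-ratios scaling). Over all tested genes 34.5% were higher and 27.2% lower. FN1, the fibronectin gene, was at 2.83 and 2.81 FPKM in H1299 with malin and empty vector, against 38.2 and 51.2 FPKM in A549. The laminin chain genes LAMB1 and LAMC1 were at 22.2 to 24.0 FPKM in H1299, against 53.4 to 59.8 FPKM in A549. SPARC, a collagen-binding matrix protein gene, was at 47.2 and 64.1 FPKM in the H2030-labelled pair with malin and empty vector, against 4.58 and 4.99 FPKM in A549. Of 11 cell-surface substrates and partners 9 were tested, with 3 higher and 5 lower in H1299 against A549, against the same shares of all tested genes. CD44, a hyaluronan receptor that docks MMPs at the cell surface, was at 0.55 and 0.96 FPKM in the H2030-labelled pair with malin and empty vector, against 138 and 110.6 FPKM in A549. CAV1, SDC1 and ITGAV were each highest in A549.

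The genes with the most similar profiles were found by the root mean square distance between centred log2(FPKM + 1) values over the 6 libraries, which are 3 lines in pairs. For MMP7 they were PTGS2, which encodes the inducible cyclooxygenase, CYP4F11 and FAM176C, at distances of 0.24, 0.26 and 0.29. PTGS2 stood at 10.9 FPKM in A549 with malin and 15.8 FPKM with empty vector and below 0.40 FPKM elsewhere. By Pearson's r the nearest gene to MMP7 was GPX2 (r = 0.999). MMP1 and MMP14 shared PASD1 and MAGEA10, cancer-testis antigen genes seen in H1299, among their 3 nearest, at 0.13 to 0.16. For MMP15 the nearest were CDA, SIRPA and GPRIN3 at 0.18 to 0.24, and for MMP2 they were ZNF502, SLC39A14 and TRMT10B at 0.06 to 0.10. TIMP1 was nearest to PSMD8, SUPT5H and AP1S1 at 0.08 each, TIMP2 to RHBDF2, TNFRSF10A and ATL3 at 0.09 to 0.12, and TIMP3 to CDHR1, EMID1 and PGBD5 at 0.03 to 0.07. MMP9 was below the filter and was not matched.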

How the data were processed

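The 6 deposited tables hold FPKM per gene, named so per the file headers, with 1 library per table. Tools named, without versions, are STAR, Cufflinks, cutadapt and FastQC, with build hg38, per the submitters' processing notes. FPKM depends on each library's total, so abundant genes shift all others. RefSeq (GRCh38.p14) supplied the gene types, with 133 genes unmatched, and positions are from GENCODE release 29 on the same assembly.

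Log2(FPKM + 1) of 12184 protein-coding genes with a mean of at least 1 FPKM was modelled in R 4.3.3 using limma 3.58.1 (line and vector terms, eBayes with an intensity trend, Benjamini-Hochberg at 0.05) and tested on simulated data. Libraries were paired by the cell line in the labels. Within a line there is 1 library per vector and no test. Fragment numbers were estimated from the spacing of low FPKM values, of which 81.5% to 83.2% lay within 0.2 of a whole number. The depth giving the highest such share was taken. Exact binomial intervals on these numbers cover counting error only. For MMP1 and MMP2, which have 2 transcripts each in the tables, the median transcript length was used. Python 3.11.15, pandas 2.3.3, scipy 1.17.1 and matplotlib 3.10.9 were used.

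Members and lists were chosen with earlier results of these data known. Named genes were all members, the 3 nearest profiles of each member passing the filter, and per list the 4 genes highest in any library and any gene past 2-fold between vectors. One gene that this rule selects is not reported here. Genes of the chromosome 11 cluster were added by position, and markers as checks. Alternatives were other pseudocounts, filters, gene classes and scalings, no trend, no block, no vector term and leaving out each line.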

Additional observations from a re-analysis of the deposited data

How the results depend on the processing

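The MMP7 difference in A549 was -1.21 with a pseudocount of 0.1, -0.86 with 5 (under 2-fold), -1.13 with median-of-ratios scaling and -1.08 with quantile normalization. MMP7, MMP2, MMP9, MMP15 and TIMP3 fall below a mean of 5 FPKM. MMP15 in the H2030-labelled pair passed 2-fold with a pseudocount of 0.1 (1.07) and with quantile normalization (1.03). Median-of-ratios scaling moved the median of all genes by -0.29 for labelled H2030 minus A549 and -0.20 for labelled H2030 minus H1299, and quantile normalization by -0.21 and -0.17.

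With the cell line as a replicate block 0 genes were called between the vectors, and without it 0 as well. NHLRC1 was not called in either case. Leaving out a line gave 0 to 1 genes, with the 1 call made without the H2030-labelled pair. Without that pair, a choice made after seeing the data, the number of genes of the set higher with malin in every line was 6, against 2. The share of all tested genes was 24.7% without that pair, against 11.04% with it, since fewer lines have to go the same way. The counts of genes past 2-fold were 14 in A549, 10 in H1299 and 254 in the H2030-labelled pair. In that order they were 152, 119 and 544 with a pseudocount of 0.1, 4, 3 and 65 with a pseudocount of 5, and 5, 5 and 144 at a mean of at least 5 FPKM. With all gene classes they were 22 in A549 and 19 in H1299, and with no filter 17 in H1299.

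Without the most abundant TIMP and MMP of each library, the ratio of sums was 7.20 and 5.91 in A549 with malin and empty vector, 1.67 and 1.90 in H1299, and 5.47 and 7.29 in the H2030-labelled pair. Depth limits the genes under about 1 FPKM, which rest on few fragments.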
